A study of Bos taurus with 33 samples.

Results

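Steroid hormones and their receptors shape the follicle before ovulation, and 8 receptor genes were followed here in oocytes and cumulus cells (CC) of beef cows: the progesterone receptor PGR, the progesterone receptor membrane components PGRMC1 and PGRMC2, the estrogen receptors ESR1 and ESR2, the glucocorticoid receptor NR3C1, and the orphan nuclear receptors NR5A1 and NR5A2. They were taken by symbol from a table of 16279 genes in oocytes and a table of 16244 genes in CC, joined by Ensembl identifier. Of the 8 receptors, 7 are described and PGR was not analysed here.

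All pools came from suckled postpartum Hereford-Angus crossbred cows that were pre-synchronised, given GnRH on day -9 to start a new follicular wave and given prostaglandin on day -2. Small pools came from cows whose largest follicle on day 0 was at most 11.7 mm and large pools from cows with a follicle of at least 12.7 mm. Cows of both classes had not shown estrus and received a second GnRH injection on day 0. Spontaneous pools came from cows with follicles of 11.7 to 14.0 mm that showed estrus, had their own gonadotropin surge and received no second injection. Follicles were aspirated about 23 h after the injection or estrus, which the stage field of the labels gives as about 20 h. Each library was made from 4 oocytes, or from the CC of 4 complexes, so a library is a mixture of cows. By the study's methods the CC pools came from the complexes of the pooled oocytes, so the tables hold matched material, but no label says that an oocyte and a CC pool of the same number come from the same cows. There were 6 small, 6 large and 4 spontaneous oocyte pools, and 6, 6 and 5 CC pools. In comparisons with spontaneous pools, the trigger of the surge and the diameter of the follicle cannot be told apart.

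Steroid receptors of the nuclear family bind a hormone inside the cell and then act on DNA as transcription factors, together with chaperones that hold them ready and coregulators that they recruit. In the ovulatory follicle the luteinizing hormone surge induces PGR in granulosa cells, and a cow follicle changes from estradiol to progesterone synthesis. ESR2 is the main estrogen receptor of granulosa cells and ESR1 that of theca cells, NR5A1 and NR5A2 switch on steroidogenic genes in granulosa cells and are needed for ovulation, and PGRMC1 and PGRMC2 are heme-binding membrane proteins linked to progesterone responses and to meiosis in the oocyte.

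Values are deposited CPM, the reads of a gene per 1000000 reads on genes, scaled within each library. Oocyte libraries held 7664375 to 17934916 reads on genes and CC libraries 1911600 to 5772431, and 3 reads, the most that a count of 0 allows, were worth 0.167 to 0.391 CPM in oocytes and 0.52 to 1.57 CPM in CC. These limits cover counting error only, since reads of amplified cDNA are not independent molecules. Mitochondrially encoded transcripts took 0.846 to 5.0% of the reads in oocytes and 12.6 to 44.0% in CC. Of the 10 markers of oocytes, 9 were measured in the oocyte pools, with a summed level of 8758 to 12838 CPM, and the 4 with a value in CC summed to 0 to 6.76 CPM there. The 12 markers of cumulus and granulosa cells summed to 5364 to 14084 CPM in CC, and FOXL2 had a mean under 1 CPM in both tables. In oocyte pools the same 12 summed to 262 to 1014 CPM.

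A transcript was retained in oocytes when 4 or more pools reached 5 CPM, which PGRMC1, PGRMC2, ESR2 and NR5A2 did and ESR1, NR3C1 and NR5A1 did not. In CC, where 5 or more pools had to reach that level, all 7 receptors were retained. Levels are compared for the same gene between pools and not between genes, because transcript length was not known. Oocyte and CC tables were scaled separately, so levels in them are set side by side without a test. In RNA of whole pools, fewer cells of a type and less RNA per cell cannot be told apart.

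**Figure D1:**
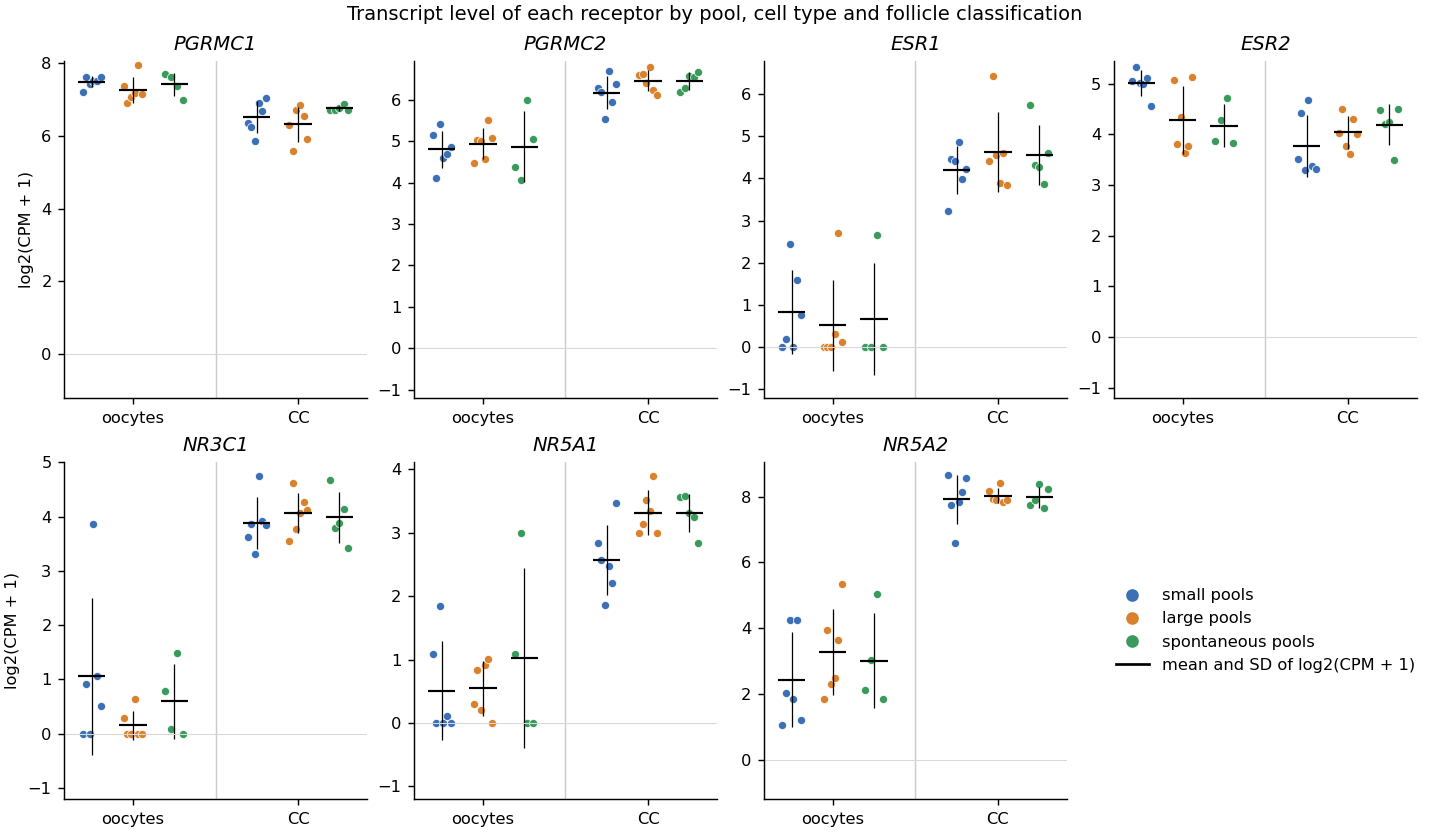
Level of each receptor as log2(CPM + 1) in every pool, with oocytes at the left and CC at the right of each panel and colours for small, large and spontaneous follicles (horizontal bars, mean; vertical bars, SD; the lower end of an SD bar can fall below 0, which no value does). ESR1 and NR5A2 lie lower in all 16 oocyte pools than in any of the 17 CC pools, and within a cell type the pools of the 3 classifications overlap for every receptor.

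PGRMC1 and PGRMC2 went in opposite directions between the cell types. PGRMC1 (ENSBTAG00000019552) held 148 to 196 CPM in small oocyte pools (median 181), 118 to 245 CPM in large ones (median 142), and 208, 195, 165 and 127 CPM in the spontaneous ones. In CC it held 57.0 to 130.1 CPM in small pools (median 91.8), 47.3 to 114 CPM in large pools (median 85.5), and 105, 103, 108, 116 and 103 CPM in spontaneous pools. Thus 14 of the 16 oocyte pools lay above every CC pool. The mean was 169.6 ± 33.9 CPM (SD, n = 16) in oocytes and 93.7 ± 23.7 CPM (SD, n = 17) in CC, or 1.81-fold higher in oocytes. The log2 ratio of 0.86 was 0.29 when the libraries of both tables were rescaled together by median-of-ratios factors.

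PGRMC2 (ENSBTAG00000010843), which like PGRMC1 binds heme and is known as a partner in progesterone signalling, held 16.3 to 41.4 CPM in small oocyte pools (median 26.3), 21.1 to 44.3 CPM in large ones (median 31.3), and 19.6, 15.7, 62.7 and 32.3 CPM in the spontaneous ones. In CC it held 45.0 to 103 CPM in small pools (median 74.7), 68.0 to 109.9 CPM in large pools (median 90.0), and 71.5, 76.3, 94.4, 92.7 and 100.3 CPM in spontaneous pools. Here 15 of the 16 oocyte pools lay below every CC pool, the exception being spontaneous replicate 3. The mean was 30.1 ± 12.0 CPM (SD, n = 16) in oocytes and 82.57 ± 16.98 CPM (SD, n = 17) in CC, or 2.74-fold higher in CC.

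A ratio of the pair within a pool does not depend on how the tables were scaled. The log2 ratio of PGRMC1 to PGRMC2 was 2.56 ± 0.66 (SD, n = 16) in oocytes, with a range of 1.39 to 3.63, and 0.16 ± 0.42 (SD, n = 17) in CC, with a range of -1.03 to 0.78. No oocyte pool reached the range of the CC pools. By classification the mean log2 ratio in oocytes was 2.73 ± 0.58 for small, 2.37 ± 0.40 for large and 2.60 ± 1.09 for spontaneous pools, and in CC 0.35 ± 0.31, -0.14 ± 0.50 and 0.31 ± 0.20 (SD). These ranges overlapped between classifications in both cell types.

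**Figure D2:**
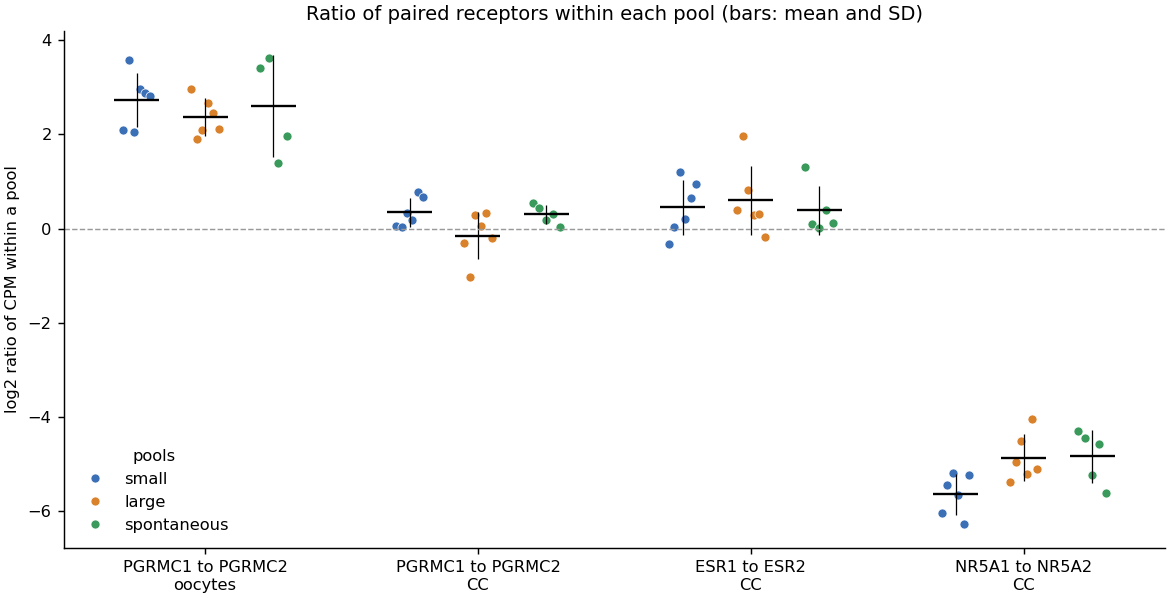
Log2 ratio of CPM of paired receptors within each pool, by cell type and follicle classification (points, pools; bars, mean and SD). The ratio of PGRMC1 to PGRMC2 is 1.39 to 3.63 in oocytes and -1.03 to 0.78 in CC, and the ratio of NR5A1 to NR5A2 in CC averages -5.63 in small, -4.87 in the large and -4.83 in spontaneous pools.

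Between classifications, limma with Benjamini-Hochberg adjustment over all retained transcripts was run on log2(CPM + 1), with a nominal p of 0.01 or less as the threshold. A log2 fold change is the second classification minus the first, and on this scale it understates the change of low transcripts. In oocytes, 0 of the 4 retained receptors passed from small to large, where 0.655% of all retained transcripts did, 0 of 4 from small to spontaneous, where 0.774% did, and 0 of 4 from large to spontaneous, where 0.943% did. In CC, 0 of 7 passed from small to large, against 0.813% of all retained transcripts, 0 of 7 from small to spontaneous, against 2.38%, and 0 of 7 from large to spontaneous, against 1.66%. At an unadjusted p under 0.05, limma counted 2 of these 33 results (both NR5A1 in CC), edgeR's quasi-likelihood test 0 and DESeq2 1 (ESR2 in oocytes). The shares of all transcripts at that level were 4.11, 4.51 and 4.87% in the oocyte comparisons and 4, 8.55 and 7.07% in the CC comparisons. The pools of the 2 classifications separated without overlap for 0 receptors in every comparison, against 0.258, 0.903 and 0.913% of retained transcripts in oocytes and 0.247, 1.16 and 0.865% in CC.

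The median log2 fold change of the retained receptors was -0.04, 0.0026 and -0.09 in the oocyte comparisons, against 0.05, 0.05 and 0.0078 over all retained transcripts, and 0.27, 0.28 and -0.01 in the CC comparisons, against 0.05, 0.16 and 0.11. After median-of-ratios scaling the medians over all CC transcripts were -0.0099, 0.01 and 0.01. That scaling moved the receptors as well, so these values are not a background for the receptor medians above. From small to large CC it gave -0.25 for PGRMC1 and 0.05 to 0.71 for the other receptors. On deposited CPM these were -0.19 and 0.11 to 0.75.

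In oocytes the limma log2 fold changes between classifications were -0.22 to 0.16 for PGRMC1 and -0.07 to 0.14 for PGRMC2. The 95% confidence intervals of these comparisons together ran from -0.59 to 0.60 for PGRMC1 and from -0.93 to 1.01 for PGRMC2. Differences inside the interval of a comparison were not excluded at this number of pools. In CC, PGRMC1 averaged 93.8 ± 27.9 CPM in small (SD, n = 6), 82.4 ± 25.8 CPM for large (SD, n = 6) and 107 ± 5.25 CPM in spontaneous pools (SD, n = 5). Between large and spontaneous CC its log2 fold change was 0.44 ± 0.21 (SE), with limma p = 0.0511, adjusted p = 0.699 and two-sided exact permutation p = 0.0519. Of the 6 large CC pools, 5 lay below every spontaneous pool, and large replicate 4 lay above all but spontaneous replicate 4. Without large replicate 2, the lowest PGRMC1 value in CC, the log2 fold change was 0.29, and the median over all retained transcripts in this comparison was itself 0.11. PGRMC2 in CC differed by -0.01 to 0.29 between classifications.

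**Figure D3:**
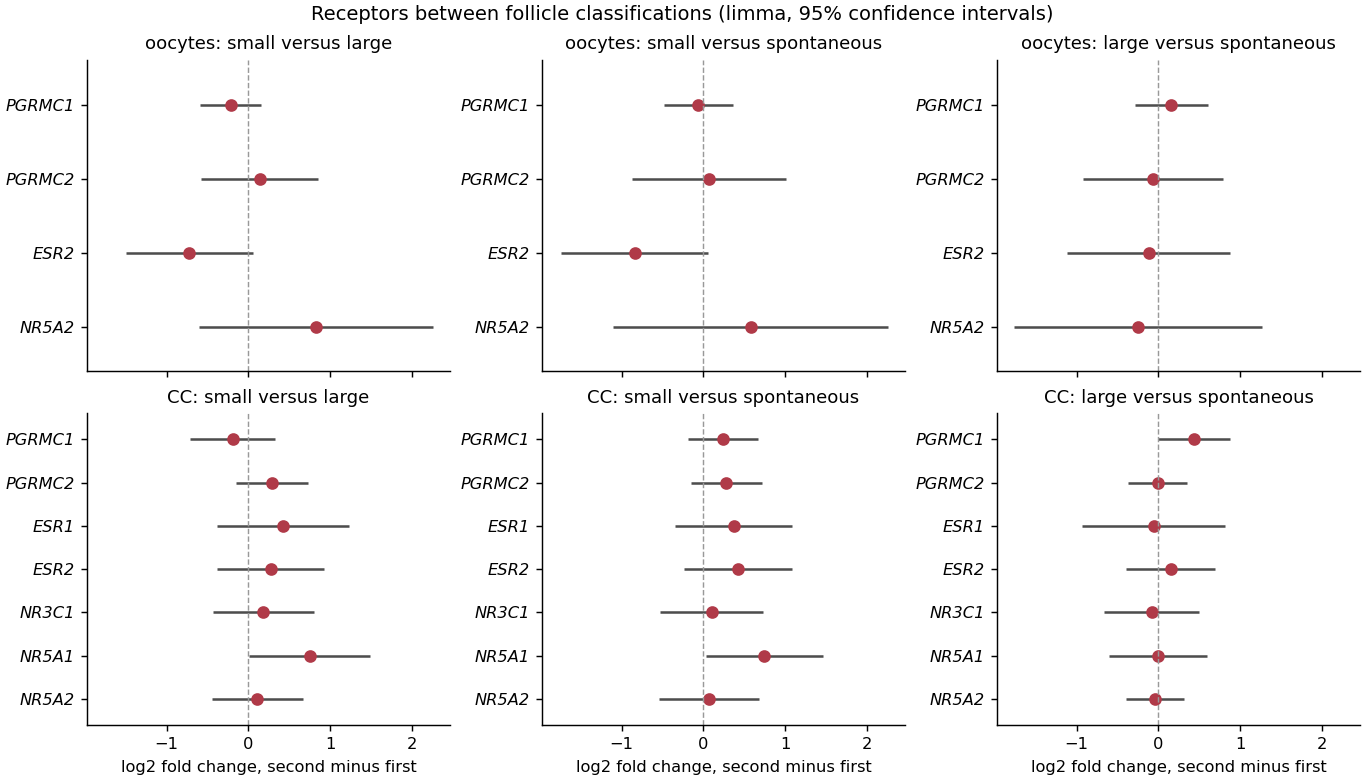
Log2 fold change of each retained receptor in the 6 comparisons (points, limma estimate on log2(CPM + 1), second classification minus first; lines, 95% confidence intervals). The intervals of NR5A1 from small to large and from small to spontaneous CC are the only ones that leave out 0, with estimates of 0.75 and 0.74, and those of ESR2 in the small oocyte comparisons end just above 0.

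The estrogen receptors were distributed differently. ESR1 (ENSBTAG00000007159), the estrogen receptor that in the follicle is best known from theca cells, had no read in 8 of the 16 oocyte pools. It held 5.54 CPM in large oocyte replicate 5, 5.31 CPM in spontaneous replicate 3, 4.44 CPM in small replicate 3 and 2.03 CPM in small replicate 5, and at most 0.689 CPM in the other oocyte pools. The 3 highest of these rest on 60, 70 and 34 reads. In CC, ESR1 was read in every pool, at 8.28 to 28.2 CPM in small pools (median 18.9), 13.3 to 84.7 CPM in large pools (median 21.3), and 52.4, 18.9, 18.2, 13.6 and 23.4 CPM in spontaneous pools. All 16 oocyte pools lay below the lowest CC pool, and the mean of 1.15 ± 2.03 CPM in oocytes (SD, n = 16) against 24.4 ± 18.2 CPM in CC (SD, n = 17) made ESR1 21.1-fold higher in CC. Separation without overlap between the tables was found for 2 of the 7 receptors, ESR1 and NR5A2, both higher in CC, whereas 36.3% of 11431 transcripts separated in this way, 22.9% higher in oocytes and 13.4% higher in CC.

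The markers listed for theca were CYP17A1, INSL3, COL1A1, COL1A2, COL3A1, DCN and ACTA2. Their summed level was 270 to 1219 CPM in small, 609 to 919 CPM in the large and 604 to 2984 CPM in spontaneous CC pools. CYP17A1, the enzyme that defines theca cells, had a mean under 1 CPM in both tables, and the part of theca cells in the ESR1 level was not tested. In CC the log2 fold change of ESR1 was 0.43 ± 0.39 from small to large (SE), 0.37 ± 0.34 between small and spontaneous and -0.06 ± 0.41 between large and spontaneous (limma adjusted p = 0.999, 0.813 and 0.981). The first was 0.07 without large replicate 2, which held 84.7 CPM, and the second was 0.07 without spontaneous replicate 1, which held 52.4 CPM.

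ESR2 (ENSBTAG00000004498), the estrogen receptor of granulosa cells, was read in every pool of both cell types. It held 22.7 to 39.5 CPM in small oocyte pools (median 31.8), 11.5 to 33.9 CPM in large ones (median 16.1), and 13.6, 18.5, 25.3 and 13.2 CPM in the spontaneous ones. In CC it held 8.89 to 24.6 CPM in small pools (median 9.92), 11.3 to 21.7 CPM in large pools (median 15.2), and 21.3, 17.6, 18.0, 10.3 and 21.6 CPM in spontaneous pools. The difference between the means of the cell types varied with the classification, which was not tested. The mean was 31.7 ± 5.41 CPM in small oocyte pools (SD, n = 6) against 13.8 ± 6.88 CPM in small CC pools (SD, n = 6), but 17.6 ± 5.66 CPM in spontaneous oocyte pools (SD, n = 4) against 17.8 ± 4.54 CPM in spontaneous CC pools (SD, n = 5). Over all pools ESR2 averaged 24.0 ± 9.55 CPM in oocytes and 15.7 ± 5.22 CPM in CC, with overlapping ranges. The log2 ratio of oocytes to CC was 0.62 over all pools, 1.204 in small, 0.37 in the large and -0.0089 in spontaneous pools, and it was 0.03 over all pools with median-of-ratios factors over both tables.

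Within oocytes, 5 of the 6 small pools lay above every spontaneous pool in ESR2, and 4 of the 6 large pools lay below every small pool. Large replicates 1 and 6, with 32.7 and 33.9 CPM, were as high as the small pools. The log2 fold change was -0.72 ± 0.38 from small to large (SE; limma p = 0.0682, adjusted p = 0.997, exact permutation p = 0.0498, two-sided) and -0.84 ± 0.44 from small to spontaneous (SE; limma p = 0.0641, adjusted p = 0.987, exact permutation p = 0.019, two-sided). Both comparisons share the small pools. Over the other settings of the fit the first lay between -0.75 and -0.65 and the second between -0.93 and -0.84, and DESeq2 gave an unadjusted p = 0.0177 for the second, above the threshold. Between large and spontaneous oocytes ESR2 differed by -0.12 ± 0.48 (SE).

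In a RefSeq table of the assembly ARS-UCD2.0, ESR2 overlaps SYNE2, which encodes a large protein of the nuclear envelope. Strand was not stated for the counting, so reads of the 2 genes cannot be told apart where they overlap. SYNE2 averaged 948 ± 180 CPM in small, 1060 ± 114 CPM in the large and 928 ± 102 CPM in spontaneous oocyte pools, and 880 ± 365, 1381 ± 422 and 873 ± 264 CPM in the CC pools (SD). The part of SYNE2 reads in the ESR2 level was not tested. In the same annotation ESR2 also overlaps a small nuclear RNA gene, and NR3C1 and NR5A2 each overlap a long noncoding RNA gene. The same limit applies to those overlaps. Within CC pools the log2 ratio of ESR1 to ESR2 was 0.49 ± 0.60 (SD, n = 17), with means of 0.45 in small, 0.60 in the large and 0.39 in spontaneous pools and a range of -0.33 to 1.96 over all pools.

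NR3C1 (ENSBTAG00000019472), the receptor of cortisol, was almost confined to CC in these libraries, apart from a single oocyte pool. It had no read in 7 of the 16 oocyte pools and at most 1.82 CPM in all but small replicate 4, which held 13.6 CPM on 166 reads. In CC it held 8.89 to 25.8 CPM in small pools (median 13.4), 10.7 to 23.5 CPM in large pools (median 16.1), and 24.7, 12.9, 13.8, 16.5 and 9.70 CPM in spontaneous pools. The mean of 15.4 ± 5.06 CPM in CC (SD, n = 17) was 12.7-fold above that of 1.21 ± 3.34 CPM in oocytes (SD, n = 16). The log2 ratio of oocytes to CC was -3.67, and -5.31 without small oocyte replicate 4. Between CC classifications NR3C1 differed by -0.08 to 0.18 on the log2 scale (limma adjusted p of 0.943 or more). The fold from small to spontaneous CC was 0.10, and turned to -0.05 after median-of-ratios scaling.

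The closest relative of NR3C1, the mineralocorticoid receptor NR3C2, had the reverse distribution: 402 ± 71.7 CPM in oocytes (SD, n = 16), with a range of 247 to 504 CPM, and 0.3 ± 0.44 CPM in CC (SD, n = 17), with at most 1.46 CPM in any pool. NR3C2 binds cortisol as well as aldosterone. FKBP5, a cochaperone of the glucocorticoid receptor that glucocorticoids induce in many tissues, averaged 522 ± 109.7 CPM in oocytes and 1362 ± 252 CPM in CC (SD).

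NR5A1 (ENSBTAG00000009017), also called steroidogenic factor, is a transcription factor of steroidogenic enzymes. It had no read in 6 of the 16 oocyte pools and 7.02 CPM in spontaneous oocyte replicate 2, with at most 2.61 CPM in the others. In CC it was read in every pool, on 5 to 58 reads: 2.62 to 10.05 CPM in small pools (median 4.74), 6.95 to 13.9 CPM in large pools (median 8.50), and 10.9, 10.9, 8.89, 8.53 and 6.17 CPM in spontaneous pools. The mean of 7.80 ± 2.98 CPM in CC (SD, n = 17) was 8.30-fold above that of 0.939 ± 1.77 CPM in oocytes (SD, n = 16). The log2 ratio of oocytes to CC was -3.05 over all pools, -3.06 in small, -4.17 in the large and -2.16 in spontaneous pools.

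Among the receptors in CC, NR5A1 had the smallest limma p between classifications. Of the 6 small CC pools, 5 lay below every large and every spontaneous pool, and small replicate 6, with 10.05 CPM, lay among them. The mean was 5.32 ± 2.60 CPM in small (SD, n = 6), 9.22 ± 2.67 CPM for large (SD, n = 6) and 9.08 ± 1.96 CPM in spontaneous pools (SD, n = 5). The log2 fold change was 0.75 ± 0.36 from small to large (SE; limma p = 0.0483, adjusted p = 0.999, exact permutation p = 0.0303, two-sided) and 0.74 ± 0.34 from small to spontaneous (SE; limma p = 0.0424, adjusted p = 0.578, exact permutation p = 0.0303, two-sided). These comparisons share the small pools, and neither reached the threshold. Between large and spontaneous CC the difference was -0.0067 ± 0.29 (SE), with a 95% confidence interval of -0.61 to 0.60.

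Depth and mitochondrial share also differed between the CC classifications, and their part in the NR5A1 difference was not tested. Small CC pools held a median of 3276812 reads on genes against 4121436 in large and 5126690 in spontaneous pools, and their mitochondrial share had a median of 23.5% against 21.4 and 15.6%. Small CC replicate 3 held the fewest reads, 1911600, the highest mitochondrial share, 44.0%, and the lowest NR5A1, 2.62 CPM. When CPM were recomputed without mitochondrially encoded genes, the log2 fold change of NR5A1 was 0.68 (limma, unadjusted p = 0.0586) from small to large and 0.62 (limma, unadjusted p = 0.0719) from small to spontaneous. Leaving out single pools gave 0.61 to 0.93 and 0.60 to 0.92. The smallest p over all 696 fits of a receptor was 0.0103, for NR5A1 from small to spontaneous CC without small replicate 6.

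NR5A2 (ENSBTAG00000009265), the second receptor of this family and a regulator of steroidogenesis and cumulus expansion, held 95.7 to 401 CPM in small CC pools (median 255), 230.1 to 341 CPM in large ones (median 242), and 213, 238, 335, 202 and 303 CPM in the spontaneous ones. The lowest value was again that of small replicate 3. The CC means were 266 ± 113 CPM in small, 263 ± 43.4 CPM in the large and 258 ± 58.2 CPM in spontaneous pools (SD), and the log2 fold changes between classifications lay between -0.04 and 0.11 (95% confidence intervals from -0.55 to 0.68; limma adjusted p of 0.964 or more). The sign of the difference from small to large and from small to spontaneous CC turned in the count tests. The log2 ratio of NR5A1 to NR5A2 within a CC pool was -5.63 ± 0.44 in small, -4.87 ± 0.50 in the large and -4.83 ± 0.57 in spontaneous pools (SD), with overlapping ranges.

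In oocytes NR5A2 was read in every pool at a lower level. It held 1.05 to 18.0 CPM in small pools (median 2.86), 2.60 to 39.9 CPM in large pools (median 8.08), and 3.32, 7.22, 32.0 and 2.62 CPM in spontaneous pools. All 16 oocyte pools lay below every CC pool, and the mean of 10.4 ± 11.6 CPM (SD, n = 16) against 263 ± 73.7 CPM in CC (SD, n = 17) made NR5A2 25.3-fold higher in CC. Between oocyte classifications the log2 fold change was 0.83 ± 0.70 from small to large, 0.58 ± 0.82 between small and spontaneous and -0.25 ± 0.74 between large and spontaneous (SE; limma adjusted p = 0.997, 0.996 and 0.987). The first was 0.41 without large replicate 6, and without spontaneous replicate 3 the comparisons with spontaneous pools gave -0.10 and -0.93.

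The oocyte pools with the most NR5A2 also held more of some cumulus markers. Expressed as a percentage of the mean level in CC, NR5A2 was 15.2% in large replicate 6, 12.2% in spontaneous replicate 3 and 6.85% in small replicate 3, with a median of 1.62% over the 16 pools. INHA, the inhibin subunit of granulosa cells, was 6.08, 4.09 and 3.92% in these 3 pools, its 3 highest values, against a median of 1.37%. TNFAIP6, a gene of cumulus expansion, was 7.83, 2.56 and 3.87% against a median of 0.529%. Small replicate 5 departed from this, with 6.79% for NR5A2, 1.36% for INHA and 0.322% for TNFAIP6.

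The summed level of the 12 cumulus and granulosa markers, HAS2 included, was also highest in the 3 pools with the most NR5A2, at 1014 CPM in large replicate 6, 737 CPM in small replicate 3 and 716 CPM in spontaneous replicate 3, against 262 to 644 CPM in the other 13 oocyte pools. As a median over the markers of the percentage of the CC mean, these 3 pools held 6.93, 5.56 and 3.32%. Spontaneous replicates 2 and 4 lay above the last of these, at 4.05 and 3.36%, with 2.75 and 0.998% for NR5A2. Across the 16 oocyte pools 8 of these markers could be correlated with NR5A2 on log2(CPM + 1), with no test. The highest values were r = 0.73 for TNFAIP6 (Spearman's rho 0.74) and r = 0.68 for INHA (rho 0.79), which were 0.56 and 0.52 without the 2 pools farthest from the median of NR5A2. The other values of r were 0.57 for SERPINE2, 0.51 for HAS2, 0.51 for INHBA, 0.47 for PTX3, 0.42 for FST and 0.0029 for PTGS2. The defining markers FSHR, FOXL2 and AMHR2 each had a mean under 1 CPM in oocytes, as FOXL2 also had in CC. Among oocyte pools AMHR2 was read in large replicate 5 alone, at 126% of its CC mean. FOXL2 was read in small replicate 3 alone, at 82.3%, and FSHR reached at most 16.5%, in spontaneous replicate 4. CYP19A1, another marker of the list, ran from 0 to 128% of its CC mean and was at 24.8, 1.06 and 0% in large replicate 6, spontaneous replicate 3 and small replicate 3. HAS2 lay at 174 to 329% of its CC mean in the oocyte pools, and PTGS2 at 3.55 to 15.4%. The part of CC RNA in the NR5A2 level of oocyte pools was not tested.

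**Figure D4:**
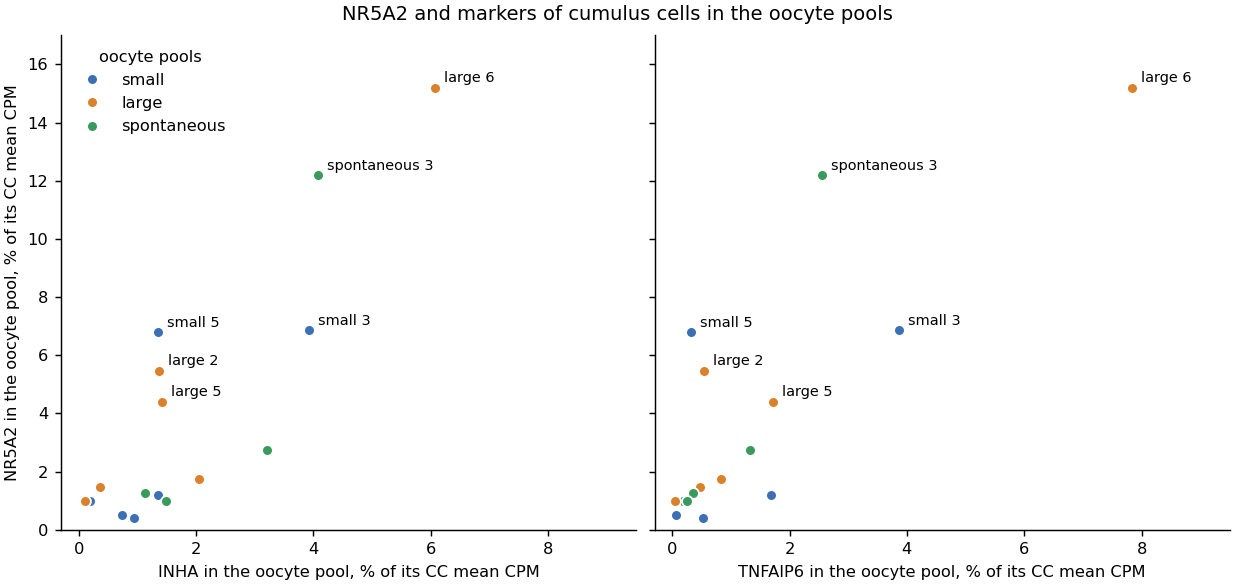
NR5A2 in each of the 16 oocyte pools against INHA (left) and TNFAIP6 (right), each as a percentage of the gene's mean CPM in CC (points, pools, coloured by follicle classification; pools over 4% NR5A2 are named by class and replicate). Large replicate 6 is highest on every axis, at 15.2% for NR5A2, 6.08% for INHA and 7.83% for TNFAIP6. Of 8 markers correlated with NR5A2 on log2(CPM + 1), INHA and TNFAIP6 had the highest r.

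The other nuclear receptors give the setting of these 7. Of 42 listed, 25 were retained in oocytes and 19 in CC, 14 of them in both. In each of the 6 comparisons between classifications limma called 0 of them at the threshold. Of 29 that could be set side by side, 10 separated with every oocyte pool above every CC pool, 2 (NR2F6 among them) with every CC pool above every oocyte pool, and 17 overlapped, against the background of 22.9 and 13.4% given above. ESRRG, an orphan relative of the estrogen receptors, averaged 163 ± 42.1 CPM in oocytes and 0.701 ± 0.854 CPM in CC. NR4A1, an immediate early gene, averaged 151 ± 33.4 and 8.84 ± 7.82 CPM. NR1H2, a sensor of oxysterols, averaged 146 ± 30.0 CPM in oocytes and 44.4 ± 12.0 CPM in CC, and NR2C1, an orphan receptor, 127 ± 35.2 and 35.5 ± 7.95 CPM. PPARG, a lipid sensor that PGR controls in ovulatory follicles, averaged 131 ± 25.4 CPM in oocytes and 79.7 ± 30.0 CPM in CC (all SD, n = 16 and 17).

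**Figure D5:**
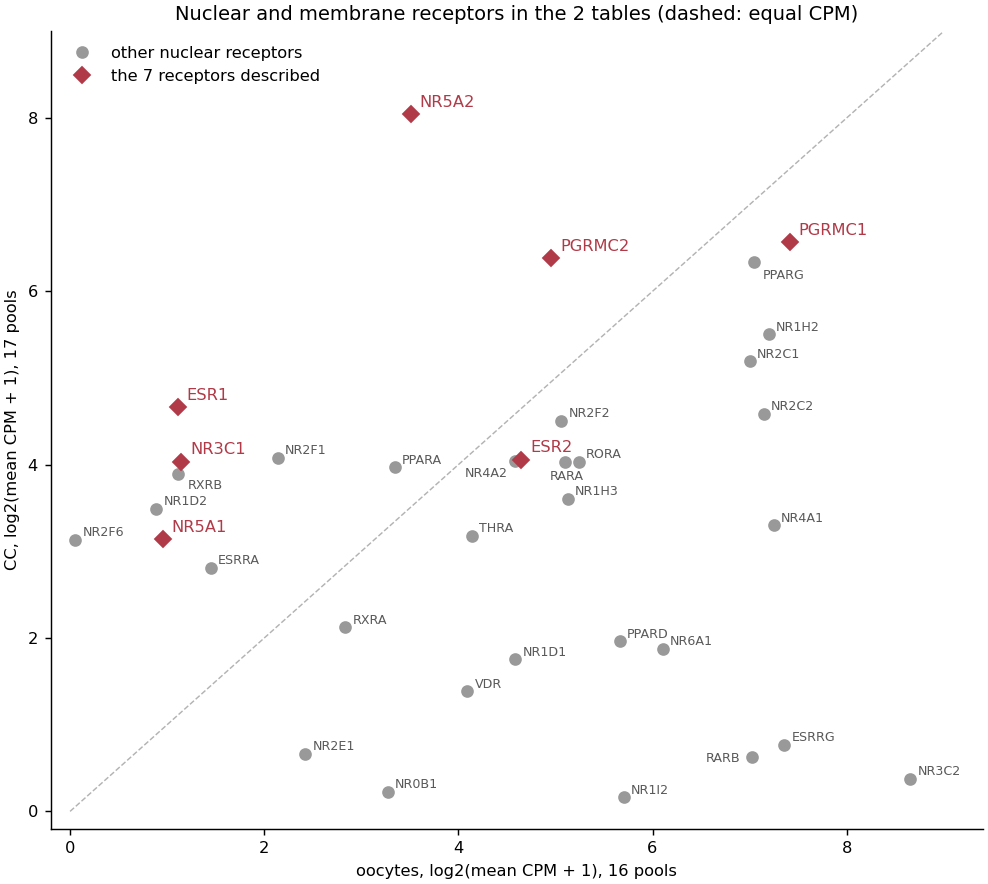
Mean level in oocytes (horizontal) and CC (vertical) as log2(mean CPM + 1) for the 7 receptors described (red) and the other nuclear receptors retained in at least 1 table and listed in both (grey), except 1 that is not reported here; the dashed line marks equal CPM, and the tables were scaled separately. ESR1, NR3C1, NR5A1, NR5A2 and PGRMC2 lie above the line, PGRMC1 and ESR2 below it, and NR3C2 lies farthest to the right.

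Genes around the receptors were counted in lists by role, together with the other nuclear receptors. Limma called 0 of the 79 retained genes of these lists in each oocyte comparison, with 2, 5 and 6 at an unadjusted p under 0.05. In CC it called 1, 1 and 2 of the 78 retained, with 2, 8 and 5 at that level. Over all retained transcripts it called 0.655, 0.774 and 0.943% in oocytes and 0.813, 2.38 and 1.66% in CC. At an unadjusted p under 0.05 these shares were 4.11, 4.51 and 4.87%, and 4, 8.55 and 7.07%. At the threshold, edgeR's quasi-likelihood test counted 0, 1 and 1 in oocytes and 1, 1 and 2 in CC, and DESeq2 0, 1 and 2 in oocytes and 1, 0 and 1 in CC. Over all retained transcripts edgeR called 51, 56 and 91 of 10076 in oocytes and 63, 128 and 127 of 9712 in CC. DESeq2 called 114, 122 and 181 in oocytes and 112, 217 and 199 in CC. In oocyte comparisons with small pools these totals also had to pass without small replicate 3. Of the membrane steroid receptors and PGRMC partners, 7 of 10 were tested in oocytes and 5 in CC, and limma called none of them in any of the 6 comparisons. SERBP1, a partner of PGRMC1, averaged 142 ± 32.5 CPM in oocytes and 245 ± 28.6 CPM in CC, POR, the electron donor of steroidogenic cytochromes, 124 ± 31.8 and 142 ± 42.4 CPM, and PAQR7, a membrane progestin receptor, 108 ± 37.7 CPM in oocytes (SD). CYP51A1, a sterol demethylase that PGRMC1 binds, averaged 40.8 ± 18.6 CPM in CC. Of 12 chaperones all were tested in both tables and none was called. HSP90AA1 averaged 1293 ± 189 CPM in oocytes and 2083 ± 336 CPM in CC, and HSPA8 863 ± 145 and 2186 ± 330 CPM. Of 14 coregulators, 13 were tested in oocytes and 12 in CC and none was called. PIAS1, NCOR1 and CREBBP averaged 936 ± 106, 814 ± 103 and 795 ± 138 CPM in oocytes, and DDX5, EP300 and NCOR1 846 ± 205, 296 ± 67.6 and 235 ± 43.2 CPM in CC. The median log2 fold change of the coregulators was 0.19 from small to large CC and 0.15 from small to spontaneous CC, against 0.05 and 0.16 over all retained transcripts. The other lists without a called gene in CC had medians, in the order of the 3 CC comparisons, of 0.19, 0.19 and 0.12 for the membrane receptors and partners, 0.02, 0.08 and 0.06 for the chaperones, 0.10, 0.30 and 0.33 for the PGR targets, 0.20, 0.22 and 0.16 for the estrogen receptor targets and 0.16, 0.09 and -0.04 for the other nuclear receptors.

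Of 12 known targets of NR5A receptors in granulosa cells, 6 were tested in oocytes, with 0 called in each comparison, and 9 in CC. Of the 9 in CC, 0 were called from small to large, 1 between small and spontaneous and 2 between large and spontaneous, all higher in spontaneous pools. Over all retained CC transcripts 0.813, 2.38 and 1.66% were called. Of these, 221 of 231 from small to spontaneous and 141 of 161 from large to spontaneous were also higher in spontaneous pools. With median-of-ratios scaling these counts were 78 of 126 and 62 of 116. The medians of the list in CC were 0.06, 0.64 and 0.50, against 0.05, 0.16 and 0.11 over all retained transcripts. SCARB1, the receptor through which granulosa cells take up lipoprotein cholesterol, held 165 to 743 CPM in small CC pools (median 362) and 558 to 1002 CPM in spontaneous pools (median 682). Its log2 fold change from small to spontaneous CC was 1.02 ± 0.31 (SE; limma p = 0.00389, adjusted p = 0.363, exact permutation p = 0.0303, two-sided). From large to spontaneous CC, INHA rose from 1786 ± 886 to 3243 ± 1214 CPM (SD), a log2 fold change of 0.89 ± 0.29 (SE; limma p = 0.00656, adjusted p = 0.567, exact permutation p = 0.0563, two-sided).

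CYP19A1, the aromatase that makes estradiol and is switched on by NR5A receptors, rose from 3.52 ± 3.18 CPM in large to 11.6 ± 7.10 CPM in spontaneous CC (SD), a log2 fold change of 1.74 ± 0.58 (SE; limma p = 0.00813, adjusted p = 0.567, exact permutation p = 0.039, two-sided). In oocytes the list was represented by STAR, the carrier of cholesterol into mitochondria, with 370 ± 56.5 CPM, FDX1 with 139 ± 28.7 CPM and INHA with 42.2 ± 37.2 CPM (SD, n = 16). In CC the means of STAR, FDX1 and INHA were 24.4, 49.2 and 2262 CPM, and INHBA averaged 529 ± 269 CPM there. For the receptors themselves, the 95% confidence interval from small to spontaneous CC was 0.03 to 1.45 for NR5A1 (limma adjusted p = 0.578). For NR5A2 it was -0.55 to 0.68. Between large and spontaneous CC the intervals were -0.61 to 0.60 for NR5A1 and -0.40 to 0.32 for NR5A2.

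Of 14 known targets of PGR in the ovulatory follicle, 9 were tested in each table with 0 called. HIF1A, the hypoxia-inducible factor, averaged 559 ± 132 CPM in oocytes and 5083 ± 1375 CPM in CC, EPAS1, a second factor of this kind, 259 ± 63.0 and 114 ± 70.5 CPM, and RUNX2, a transcription factor of the luteinizing follicle, 222 ± 76.5 CPM in CC (SD). Of 10 targets of estrogen receptors, 4 were tested in oocytes and 6 in CC with 0 called. GREB1, a cofactor that estrogen induces, averaged 61.7 ± 51.2 CPM in oocytes and 567.7 ± 167.1 CPM in CC, GJA1, the gap junction protein of granulosa cells, 43.9 ± 28.0 and 512 ± 159 CPM, and IGF1R 69.0 ± 28.2 and 152 ± 37.6 CPM.

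Of 12 genes of the glucocorticoid response and of the enzymes that make or remove cortisol, 7 were tested in oocytes with 0 called and 9 in CC, where 1 was called from small to large and 0 in the other comparisons. Over all retained CC transcripts 0.813% were called from small to large, and 67 of these 79 were higher in large pools. The called gene of the list was H6PD, which supplies NADPH to the enzyme that regenerates cortisol. It rose from 9.54 ± 3.72 CPM in small to 21.6 ± 10.8 CPM in large CC (SD), a log2 fold change of 1.02 ± 0.35 (SE; limma p = 0.00897, adjusted p = 0.999, exact permutation p = 0.026, two-sided). HSD11B1, that enzyme, averaged 106 ± 79.7 CPM in CC, and HSD11B2, which inactivates cortisol, 40.4 ± 15.8 CPM in oocytes (SD). PER1, a clock gene with glucocorticoid response elements, averaged 259 ± 56.0 CPM in oocytes and the metallothionein MT2A 613 ± 240 CPM in CC. All 4 genes called in these lists, SCARB1, INHA, CYP19A1 and H6PD, lost the threshold after median-of-ratios scaling, with log2 fold changes of 0.86, 0.79, 1.65 and 0.97. Over the 9 other settings of the fit, count tests included, the call was lost in 5 for SCARB1, 5 for INHA, 8 for CYP19A1 and 4 for H6PD, and the log2 fold change of SCARB1 was 0.65 in edgeR and 0.64 in DESeq2. Leaving out single pools, the call was lost in 2 of 11 fits for SCARB1, 7 of 11 for INHA, 6 of 11 for CYP19A1 and 7 of 12 for H6PD.

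The transcripts whose log2(CPM + 1) followed each receptor most closely over the pools of a table are given as a description, since they were picked as the highest of 10075 correlations in oocytes and 9711 in CC, which share libraries and depth. In the 17 CC pools these were LRIG1 and ARAF for NR5A2 (r = 0.89 and 0.87), SERPINH1 and ST7 for NR5A1 (0.85 and 0.83), and PIAS3 and BCOR for ESR1 (0.83 and 0.82). SLC22A3 and PRICKLE1 were nearest to ESR2 (0.86 and 0.83), MED12 and USP28 to NR3C1 (0.83 and 0.82), RNGTT and MTCH2 to PGRMC1 (both 0.88), and PRKAA2 to PGRMC2 (0.90). In the 16 oocyte pools they were TIMP2 and SKIL for NR5A2 (both 0.84), UNC5B for ESR2 (0.77), AP4E1 and ZNF248 for PGRMC2 (0.82 and 0.80), and QARS and SMARCD3 for PGRMC1 (both 0.76). Without the 2 pools farthest from the median of the receptor, these values lay between 0.65 and 0.85, the lowest being that of PIAS3 with ESR1.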

How the data were processed

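RNA of pools of 4 oocytes, or of the CC of 4 complexes, was amplified to cDNA and sequenced. The authors trimmed the reads with fqtrim, used Hisat2 for alignment to UMD3.1 and featureCounts with Ensembl genes for counting, divided by the reads on genes and deposited CPM, in 16 oocyte and 17 CC libraries whose columns all matched a sample label. In every library 100% of the deposited CPM were whole multiples of 1 read (within 0.05 read). All pairs of libraries within a group differed by more than counting noise. The study's methods describe complexes aspirated from the largest follicle of each cow, so pools of a class hold different cows, and p-values measure the spread between such pools.

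Members and lists were chosen with earlier results of these data known. The text names all receptors, list genes that passed the threshold, the 3 list genes with the highest mean CPM per table, and the 2 transcripts nearest to each receptor, except a few genes that are not reported here; NR2F6 was named after its values were seen, as were the marker genes of the NR5A2 comparison in oocytes. Transcripts that reached 5 CPM in 4 or more oocyte pools, or 5 or more CC pools, were tested with limma 3.58.1 (R 4.3.3; log2(CPM + 1), mean-variance trend, 2 classifications per fit, no covariates, two-sided), adjusted by Benjamini-Hochberg over all of them; small oocyte comparisons also had to pass without small replicate 3. An exact permutation test of mean CPM stood beside it; the smallest p it allows is 0.00216 to 0.00952. The alternatives were median-of-ratios scaling, removal of mitochondrially encoded genes, a replicate block, 1 fit of all 3 classifications, a pseudocount of 0.1, a filter on mean CPM (1 or more) or none, edgeR 4.0.16 and DESeq2 1.42.0 on recovered reads, and each pool left out in turn. The script was tested on simulated data. Neither a genome nor transcript lengths of UMD3.1 were used here. Figures used Python 3.11.15 and matplotlib 3.10.9.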

Additional observations from a re-analysis of the deposited data

Results flagged for a closer look

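In each group of 4 to 6 pools, the pool farthest from its neighbours was compared with the critical value of Dixon's test. Of 42 groups, 10 had a pool beyond it. The chance rate of about 1 in 20 groups holds for independent, normally distributed values. The CPM here include values of 0 and the genes share pools, so the count is not set against that rate. All 10 were the highest pool of their group. In oocytes these were PGRMC1 in large replicate 5 at 244.6 CPM, where the next pool held 165 CPM, and ESR1 in large replicate 5 at 5.54 CPM and in spontaneous replicate 3 at 5.31 CPM, where the next pools held 0.243 and 0 CPM. NR3C1 held 13.6 CPM in small oocyte replicate 4 against 1.09 CPM in the next pool, and NR5A1 held 7.02 CPM in spontaneous oocyte replicate 2 against 1.13 CPM. NR5A2 held 39.9 CPM in large oocyte replicate 6 against 14.4 CPM, and 32.0 CPM in spontaneous oocyte replicate 3 against 7.22 CPM.

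In CC, ESR1 held 84.7 CPM in large replicate 2 against 23.3 CPM in the next pool, and 52.4 CPM in spontaneous replicate 1 against 23.4 CPM. NR3C1 held 25.8 CPM in small CC replicate 4 against 14.1 CPM.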

How the results depend on the processing

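The count of receptors at the threshold was 0 in each of the 6 comparisons under every alternative, over 696 fits. Of the 33 receptor results 15 changed sign at least once, 51 times in all. Between oocytes and CC, the log2 ratio was 0.29 for PGRMC1 with median-of-ratios factors over both tables, -0.0089 for ESR2 in spontaneous pools alone (0.62 over all), -2.45 for NR3C1 in small pools alone and -4.17 for NR5A1 in large pools alone. On deposited CPM over all pools the ratios of these receptors were 0.86, 0.62, -3.67 and -3.05. With each pool left out in turn, the ratios on deposited CPM were 0.81 to 0.89, 0.55 to 0.67, -5.31 to -3.58 and -3.87 to -2.96. Those fits were added after seeing the data, and the lowest NR3C1 value is that without small oocyte replicate 4. The ratio was not formed where the oocyte value was at or under the worth of 3 reads, as for NR3C1 in large pools alone and for median CPM of ESR1, NR3C1 and NR5A1. Between large and spontaneous oocytes, PGRMC2 turned to 0.11 with a replicate block, 0.058 in edgeR and 0.068 in DESeq2, and NR5A2 to 0.37 with the block. From small to large CC, NR5A2 turned to -0.0046 without mitochondrially encoded genes, -0.020 in edgeR and -0.021 in DESeq2, and SCARB1 to -0.054 without those genes. From small to spontaneous CC, median-of-ratios scaling, CPM without mitochondrially encoded genes, edgeR and DESeq2 turned NR3C1 to -0.046, -0.064, -0.028 and -0.036 and NR5A2 to -0.089, -0.11, -0.14 and -0.15. The cause of these changes was not tested. Same-numbered pools did not deviate together (r from -0.19 to 0.22), and no label says that a number marks a shared batch; with the replicate block 0 receptors passed as well.

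With single pools left out, the results that turned had these log2 ranges. From small to large oocytes, PGRMC2 -0.00052 to 0.26, INHA -0.46 to 0.61. From small to spontaneous oocytes, PGRMC1 -0.16 to 0.079, PGRMC2 -0.31 to 0.34, NR5A2 -0.10 to 0.96. From large to spontaneous oocytes, PGRMC2 -0.44 to 0.20, ESR2 -0.30 to 0.047, NR5A2 -0.93 to 0.17. From small to large CC, NR5A2 -0.16 to 0.25, SCARB1 -0.31 to 0.28. From small to spontaneous CC, NR3C1 -0.075 to 0.27, NR5A2 -0.20 to 0.21. From large to spontaneous CC, PGRMC2 -0.082 to 0.056, ESR1 -0.36 to 0.30, NR3C1 -0.26 to 0.057, NR5A1 -0.073 to 0.11, NR5A2 -0.14 to 0.040. Depth limits the low receptors, with 5 to 58 reads for NR5A1 in CC.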
